A study of Mus musculus with 43 samples.

Results

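Of the 43 bulk RNA-seq libraries of this series, 6 hold cardiomyocytes of Q150X mouse hearts, and they were chosen by the cell type, genotype and treatment that the labels give. In 3 libraries the cardiomyocytes were taken 3 days after myocardial infarction (MI), the death of heart muscle when its blood supply stops, and in 3 they came from uninjured hearts at homeostasis. Q150X is an allele made by CRISPR/Cas9 editing that places a stop codon in Vegfa, and both Q150X groups carry it. The labels write this genotype also as HO and do not spell that out. Cardiomyocytes of wild-type hearts, 3 libraries at day 3 after MI and 3 at homeostasis, are used here only to show whether the response differs between the genotypes. Strain, age, sex, the way cells were isolated, the part of the heart they came from and any sham operation are not stated in the sources used here. The labels do not say that replicates are separate animals, so errors and p-values measure the spread between libraries, which may be partly technical.

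Vegfa encodes the main growth factor of blood vessels, and cardiomyocytes are one of its sources in the heart. Adult cardiomyocytes live on mitochondrial oxidation of fatty acids. After an infarction the surviving cells are known to lower genes of this oxidative machinery and to use again genes of the fetal heart, while monocytes, macrophages and fibroblasts fill the injured wall and lay down scar matrix.

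The day 3 libraries held 34420800, 36377605 and 34541532 counts and the homeostasis libraries 25535967, 33032639 and 29831136 counts. The first principal component of the 12 cardiomyocyte libraries held 59.2% of the variance and separated day 3 from homeostasis. The fraction carried the markers of its label. The summed level of 12 cardiomyocyte genes, in CPM (counts scaled to a common library total), was 53016 to 63779 at day 3 and 67078 to 71151 at homeostasis in Q150X cardiomyocytes, against 61.98 to 1566 in the 10 endothelial libraries of the series. From here on CPM are computed on library sizes scaled by TMM factors, which correct for differences in RNA composition. On this scale the cardiomyocyte markers summed to 56617, 48907 and 45589 CPM at day 3, against 70334, 72936 and 76696 CPM at homeostasis.

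Markers of other cell types moved with the comparison. The 12 macrophage and monocyte markers, led by the lysozyme gene Lyz2 and the protease gene Ctss, summed to 145, 169 and 351 CPM at day 3, against 2.505, 4.42 and 4.77 CPM at homeostasis. The 12 fibroblast markers, led by the collagen gene Col3a1, summed to 557, 662 and 949.6 CPM, against 36.7, 95.3 and 60.5 CPM. Day 3 library 3 was highest in both. By library total, the macrophage markers of the day 3 cardiomyocytes (164 to 413 CPM) overlapped those of uninjured Q150X whole hearts (203 to 343 CPM), while the cardiomyocytes of homeostasis held 2.39 to 4.42 CPM. The 12 endothelial markers summed to 239.7, 256 and 287 CPM at day 3, against 162, 241 and 158 CPM. The 10 of pericytes and smooth muscle summed to 509, 522 and 471 CPM, against 456, 586 and 552 CPM. This last sum was led by Abcc9, also a gene of membrane currents, which fell to 262, 243 and 172 CPM, against 351, 408 and 412 CPM. Of the 9 pericyte and smooth muscle markers tested, 8 had a log2 fold change above 0 (median 0.92). In that list 5 were called higher and 1 lower, so the sum does not show the rise of most members. In bulk RNA, more cells of a type and more of its RNA per cell cannot be told apart. What part these cells have in the results below was not tested, and their values are given again beside the groups they move with most.

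**Figure D1:**
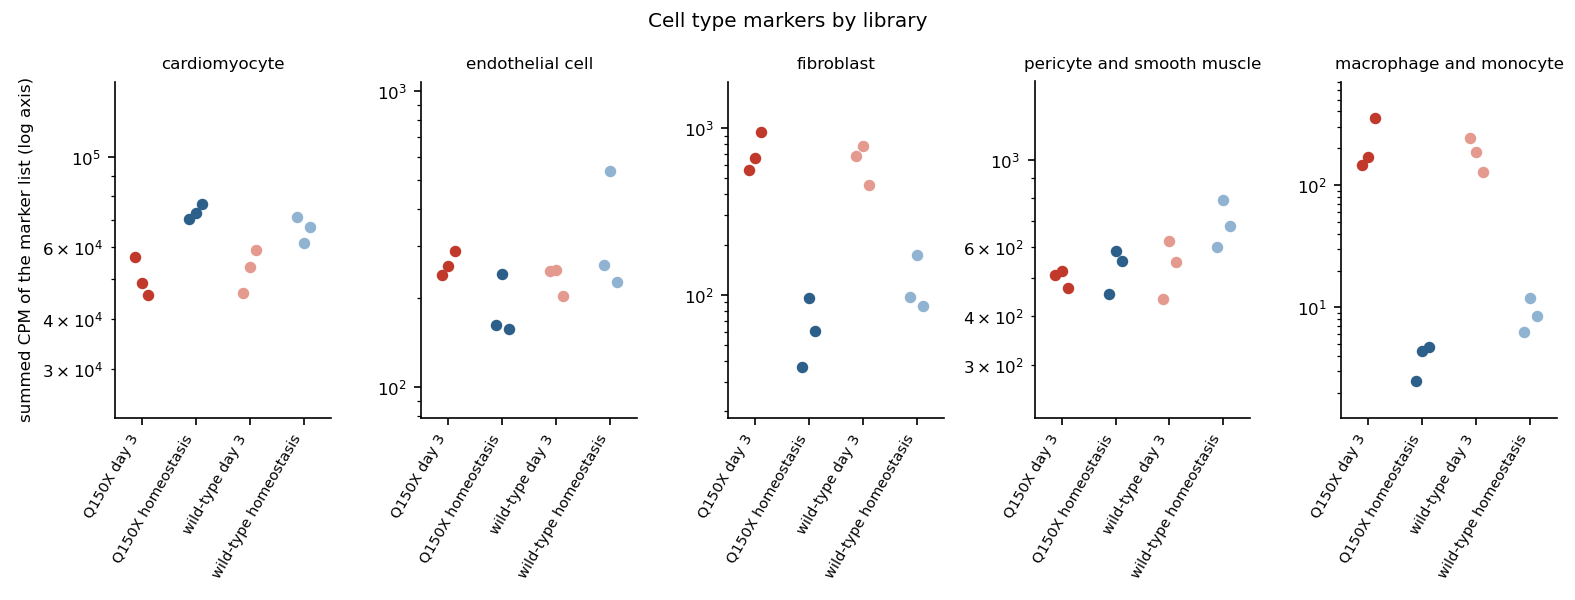
Summed CPM of 5 marker lists (log axis) in each of the 12 cardiomyocyte libraries, 1 point per library, with Q150X day 3 and Q150X homeostasis on the left and both wild-type groups on the right of each panel. Macrophage and fibroblast markers were higher in every day 3 library than in any library of homeostasis, and cardiomyocyte markers were lower in every day 3 library. The pericyte and smooth muscle sum is led by Abcc9, which was called lower in Q150X, while most other members rose.

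Between day 3 and homeostasis, 4097 of 15169 genes tested passed edgeR's quasi-likelihood test at an adjusted p under 0.05 in Q150X cardiomyocytes, which is 27% of the genes. Of these, 2256 were higher (14.9% of the genes tested) and 1841 lower (12.1%) at day 3. A change of at least 2-fold was much more often a rise: 1524 genes (10%) rose and 198 (1.31%) fell by that much. The median log2 fold change of all genes tested was -0.0046. With library size alone as the scale this median moved to 0.27 and the split to 4057 higher and 429 lower genes, so small falls are falls relative to the typical gene. Of the genes described below, Vegfb, Atp2a2, Ryr2, Tnni3, Eno3, Pfkm, Oxct1, Prdx3, Sod2, Trim63, mt-Nd5, mt-Nd2, Myh7b and Mt1 were not called lower on that scale. Without day 3 library 3 the count was 2430.

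Vegfa mRNA itself fell. It stood at 363, 269 and 238 CPM in the 3 day 3 libraries, against 455, 497 and 622 CPM at homeostasis, with no overlap of the groups (log2 fold change -0.85 ± 0.16, SE; adjusted p = 0.00118, edgeR). The edited codon cannot be seen in a gene's total count, and no level here tests the genotype. Its relative Vegfb, a growth factor of the same family, fell to 126, 96.1 and 80.99 CPM at day 3, against 142, 136 and 159.8 CPM at homeostasis. The receptor genes Kdr (39.1, 36.4 and 35.4 CPM at day 3 and 29.5, 45.6 and 32.8 CPM at homeostasis) and Flt1 (28.4, 37.5 and 29.4 and 26.9, 44.9 and 26.03 CPM) overlapped between the groups, with changes of 0.04 ± 0.31 and -0.04 ± 0.36. Of 26 angiogenic and VEGF pathway genes tested, 5 were called higher and 3 lower. This is 30.8% of the members, close to the 27% of all genes tested. The higher count depended on single libraries, with 2 without day 3 library 3 or homeostasis library 3, 3 without day 3 library 1 or 2 or homeostasis library 1, and 8 without homeostasis library 2. On library size alone 11 were higher and 1 lower. Hgf, the hepatocyte growth factor, had 0 counts in all homeostasis libraries and 1.14, 1.04 and 2.22 CPM at day 3, which is at least 40.5-fold higher against a floor of 3 counts over the group. The apelin receptor gene Aplnr rose to 10.6, 9.21 and 10.03 CPM, against 3.04, 4.32 and 2.42 CPM.

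Among called, non-overlapping genes whose mean log2 CPM reached 1, the largest rises were of secreted and inflammatory genes. Rarer genes, such as Il6 described below, were not ranked. Spp1, which encodes osteopontin, a matrix protein and cytokine made by macrophages and injured tissue, had 64.8, 114 and 158 CPM at day 3 and 0 counts in all 3 homeostasis libraries, at least 3105-fold higher against 3 counts over the group. Sprr1a, a gene of the small proline-rich family known as stress-induced in cardiomyocytes, had 34.4, 47.9 and 116 CPM at day 3, against 0.246, 0 and 0.0723 CPM at homeostasis. Tnc, which encodes the matricellular protein tenascin C, had 36.1, 38.5 and 43.5 CPM, against 0.164, 0.393 and 0.289 CPM (log2 fold change 7.07 ± 0.43). These day 3 values lie far above every homeostasis value, and only Tnc was nearly level between the day 3 libraries. Serpina3n, an acute-phase protease inhibitor, had 45.5, 62.97 and 35.3 CPM, against 0.739, 0.426 and 0.325 CPM, and Timp1, an inhibitor of matrix proteases, 16.4, 17.6 and 38.03 CPM, against 0.0822, 0.786 and 0.108 CPM. Lox, which crosslinks collagen, had 19.8, 21.2 and 34.7 CPM, against 0.164, 0.524 and 0 CPM. Serpinb1a, an inhibitor of leukocyte proteases, had 27.7, 41.4 and 143 CPM, against 0.657, 0.786 and 0.506 CPM. The others of the 10 largest rises, Ctss (24.3, 30.6 and 67.00 CPM, against 0.0822, 0 and 0.217 CPM), Mpeg1 (27.6, 37.2 and 88.9 CPM, against 0, 0.262 and 0.217 CPM) and Lyz2 (60.3, 74.4 and 155 CPM, against 0.164, 1.38 and 1.301 CPM), are genes of macrophages and monocytes, and all 3 were highest in day 3 library 3.

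In the same ranking the largest falls were smaller. Rarer genes were left out of it here too, such as Myl7, described below (log2 fold change -6.64). Arntl, the core clock activator also called Bmal1, had 1.45, 1.395 and 1.31 CPM at day 3, against 1.97, 12.2 and 6.62 CPM at homeostasis, a log2 fold change of -2.33 ± 0.50 (adjusted p = 0.00543). Its homeostasis libraries differed widely among themselves, and the sources used here do not state the hour of collection. Metrn, which encodes the secreted protein meteorin, fell to 3.56, 1.95 and 2.34 CPM, against 10.4, 9.66 and 10.8 CPM. Adcy1 (-1.70 ± 0.25), an adenylyl cyclase gene, Whrn (-1.50 ± 0.27), a scaffold gene, Tmem82 (-1.44 ± 0.30), Rhbdl3 (-1.44 ± 0.32) and Gnb3 (-1.43 ± 0.27), a G protein subunit gene, also fell. Myh7b, a slow myosin gene, had 105, 59.6 and 26.2 CPM at day 3 and 167, 122 and 248 CPM at homeostasis, and Reln, which encodes reelin, 2.09, 0.812 and 0.813 and 3.78, 2.33 and 3.98 CPM. Both calls were lost under several settings. The adjusted p of Myh7b was 0.106 and 0.0634 without day 3 library 2 or 3 and 0.0647 and 0.12 without homeostasis library 1 or 3. It was 0.121 with the compared groups alone and 0.0815 with no filter on low counts. That of Reln was 0.0666 and 0.0705 without day 3 library 2 or 3 and 0.0535 without homeostasis library 3.

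**Figure D2:**
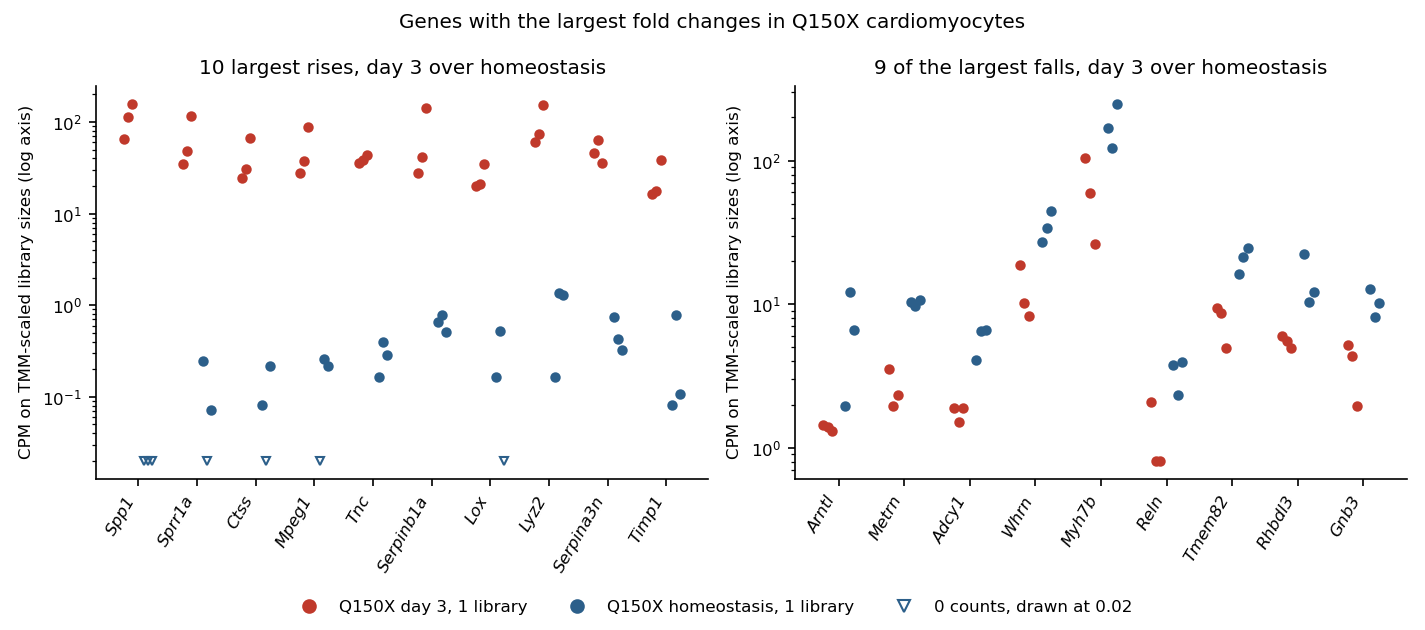
CPM (log axis) of the 10 largest rises (left panel) and of 9 of the largest falls (right panel) in each Q150X library, 1 point per library, day 3 left of homeostasis for each gene and open triangles for 0 counts. No gene drawn has overlapping groups, and each has a mean log2 CPM of at least 1, both conditions of their choice. The rises drawn are larger than the falls drawn.

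By the size of the CPM difference, Clu led the rises and mt-Nd5, a mitochondrially encoded gene described further on, the falls. Clu, which encodes the secreted chaperone clusterin, rose to 1536, 2059 and 2036 CPM at day 3, against 603, 538 and 593 CPM at homeostasis (log2 fold change 1.70 ± 0.12, adjusted p = 2.31e-06). Ankrd1, a stretch-responsive gene of the sarcomere and nucleus, rose to 1157, 2048 and 1521 CPM, against 695, 650.4 and 645 CPM. Des, the gene of the muscle intermediate filament desmin, rose to 2211, 2349.7 and 2814 CPM, against 1632, 1397 and 1663 CPM. In all 3 the day 3 libraries stood above every homeostasis library. The elongation factor gene Eef1a1 (366, 489 and 805 CPM, against 70.5, 101 and 70.2 CPM) and the nuclear long noncoding RNA Neat1 (1036, 689.5 and 652 CPM, against 435, 274 and 272 CPM) rose as well. Eef1a1 has many near-identical pseudogenes, so how counting shared its reads is uncertain. Among the other falls, mt-Nd2, also of the mitochondrial genome, had 24958, 30945 and 25848 CPM at day 3 and 33204, 38927 and 36252 CPM at homeostasis. The adult cardiac myosin gene Myh6 had 23369, 17739 and 16287 CPM at day 3, against 29658, 30863 and 33687 CPM, the calcium pump gene Atp2a2 14145, 13535 and 10819.9 CPM, against 18584, 19129 and 19769.6 CPM, and the titin gene Ttn 6509, 5501 and 4980.5 CPM, against 8765, 9097 and 8316 CPM. The mitochondrial ribosomal RNA mt-Rnr2 fell to 5069, 6572 and 5113 CPM, against 13547, 13944 and 13594 CPM (log2 fold change -1.29 ± 0.14).

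Genes of the fetal program and of wall stress mostly rose. Of 19 tested, 10 were called higher and 2 lower, with a median log2 fold change of 1.25. Nppa, which encodes the natriuretic peptide ANP, had 221, 455 and 616 CPM at day 3, against 49.7, 33.9 and 19.95 CPM at homeostasis (3.64 ± 0.46, adjusted p = 0.000657). Myh7, the slow myosin of the fetal mouse ventricle, had 1327, 869 and 634 CPM, against 289, 134 and 172 CPM (2.25 ± 0.33). Nppa was highest in day 3 library 3 and Myh7 in day 3 library 1, so the 2 genes did not follow one order among the libraries. Fhl1 (1.75 ± 0.21), a biomechanical stress sensor of the sarcomere, Actn1 (2.33 ± 0.23), nonmuscle alpha-actinin, and the transcription factor gene Runx1, at 2.19, 3.25 and 3.18 CPM, against 0, 0.0655 and 0.108 CPM, rose too. Nppb, which encodes the related peptide BNP, had 259.6, 274 and 220.1 CPM at day 3 and 177, 212 and 273 CPM at homeostasis and did not pass (0.19 ± 0.20, adjusted p = 0.528), and its groups overlapped. Skeletal actin Acta1 did not pass either (0.21 ± 0.39). The 2 calls lower were the metallothionein gene Mt1 (-0.58 ± 0.15) and the atrial light chain gene Myl7, which had 0.3697, 5.602 and 0.108 CPM at homeostasis and 2 counts over the 3 day 3 libraries. Neither was called without day 3 library 2 (adjusted p = 0.0508 for Mt1 and 0.0504 for Myl7, edgeR). Myl7 was also not called without day 3 library 3 (0.0682) or homeostasis library 2 (0.0652), the library that held most of its counts.

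Of 28 sarcomere and Z-disc genes 11 were called lower and 2 higher, while 15 did not pass. The median was -0.20. With library size alone 6 were lower and 6 higher, and the median was 0.07. The regulatory light chain gene Myl2 had 4129, 3997 and 3417 CPM at day 3, against 6799.7, 6687 and 6223 CPM (-0.77 ± 0.10, adjusted p = 0.000133). The essential light chain gene Myl3 (-0.72 ± 0.11), the troponin I gene Tnni3 (-0.60 ± 0.12) and the calcineurin-binding Z-disc gene Myoz2 (-0.69 ± 0.10) fell. Troponin T (Tnnt2, 0.04 ± 0.09), alpha-actinin (Actn2, -0.07 ± 0.10) and cardiac actin (Actc1, -0.21 ± 0.13) did not pass the test. Besides Des, the Z-disc gene Pdlim5 rose (0.60 ± 0.13). The sarcomere list shares 8 genes with the cardiomyocyte markers, of which 8 of 12 were called lower (median -0.56), or 5 lower and 1 higher with library size alone.

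Of 18 genes of calcium handling, 6 were called lower and 2 higher (median -0.19), or 1 and 5 with library size alone (median 0.09). The histidine-rich calcium-binding protein gene Hrc fell to 639, 659 and 471 CPM at day 3, against 1047, 1134 and 1118 CPM, the largest fall of the list. Without homeostasis library 2 the higher count was 4, and without day 3 library 3 or homeostasis library 1 or 3 it was 1. Ryr2, the calcium release channel gene, was called lower (-0.52 ± 0.14), as was Atp2a2 (-0.58 ± 0.14), though for Ryr2 the adjusted p without day 3 library 2 was 0.0815 (edgeR). By contrast the pump's inhibitor Pln had 863, 1002 and 847 CPM at day 3 and 941, 976 and 936 CPM at homeostasis (-0.07 ± 0.10, not called). The sodium-calcium exchanger gene Slc8a1 rose to 673, 626 and 824 CPM, against 437, 468 and 435 CPM (0.66 ± 0.11). Among 25 genes of membrane currents and conduction 8 were lower and 3 higher (median -0.15), or 4 and 6 with library size alone (median 0.11), among them the pacemaker channel gene Hcn2 (-0.93 ± 0.21) on the lower side and the connexin gene Gjc1 (0.85 ± 0.15) on the higher. Without day 3 library 2 the lower count was 4, and the higher count was 1 without homeostasis library 1 and 5 without homeostasis library 2. Of 18 adrenergic signalling genes 4 were lower and 2 higher (1 lower without day 3 library 2 or 3 or homeostasis library 1, and 7 without day 3 library 1), and the receptor kinase gene Grk5 rose to 43.8, 53.4 and 58.8 CPM, against 29.2, 21.4 and 29.03 CPM. Of 20 cardiac transcription factor genes 5 were lower and 2 higher (2 lower without day 3 library 2 or 3 or homeostasis library 3, 3 without homeostasis library 1, and 9 without day 3 library 1). The medians of these last 2 lists, -0.23 and -0.16, became 0.04 and 0.11 with library size alone. On that scale 0 adrenergic genes were lower and 2 higher, and 1 transcription factor gene was lower and 3 higher. In the main fit 33.3% and 35% of the 2 lists were called, against 27% of all genes tested.

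Genes of mitochondrial energy production fell together. Of 37 nuclear genes of complex I of the respiratory chain 34 were called lower and 0 higher, with a median of -0.57 and all 37 values below 0. Of 37 nuclear genes of complexes II to V, 34 were lower and 0 higher (median -0.53), and of 15 citric acid cycle genes, 13 and 0 (median -0.46). Against the 12.1% of all genes called lower, these are 91.9%, 91.9% and 86.7% of the members. Ndufa7, a subunit of complex I, had 44.3, 43.7 and 37.7 CPM at day 3, against 67.99, 80.3 and 78.6 CPM at homeostasis (-0.85 ± 0.10, adjusted p = 5.07e-05). Cox7a1, the heart form of a complex IV subunit, had 140.4, 114 and 95.8 CPM, against 224, 298 and 270.1 CPM (-1.18 ± 0.15), the largest fall among complexes II to V. Mdh2, malate dehydrogenase of the cycle, had 718, 599.8 and 542 CPM, against 955, 944 and 1059.8 CPM (-0.67 ± 0.11). In none of these 3 did the groups overlap, and all were lowest in day 3 library 3. That library was the lowest of day 3 for 32 of the 34 called complex I genes, and without it the count of the citric acid cycle was 8. With library size alone the 3 counts were 17, 11 and 1 and the medians -0.30, -0.26 and -0.19, while the median of all genes was 0.27. The cardiomyocyte markers fell with these genes (8 of 12 called lower, median -0.56), and the part of this in the result was not tested.

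The 13 protein genes encoded by the mitochondrial genome gave a different count, with 2 called lower and 0 higher (median -0.33, or -0.06 with library size alone). Of the called members, mt-Nd5, a complex I subunit, had 34701, 38541 and 34316 CPM at day 3 and 48715, 50730.3 and 50370.2 CPM at homeostasis (-0.48 ± 0.13, adjusted p = 0.0121). Without day 3 library 3 it did not pass (adjusted p = 0.0583), nor did the other called gene, mt-Nd2 (0.14), whose call was also lost without day 3 library 1 (0.128) or homeostasis library 2 (0.117) or 3 (0.0978). All RNA encoded there took 33.1%, 37.3% and 34.6% of the counts at day 3 and 37.2%, 39% and 36.9% at homeostasis. In wild-type cardiomyocytes 9 of the 13 protein genes were called lower and 0 higher (median -0.60). There homeostasis library 2 held the largest share of this RNA, 50% of its counts.

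Genes of fuel use fell as well. Of 30 genes of fatty acid uptake and oxidation 18 were called lower and 1 higher (median -0.42), or 11 lower without day 3 library 3, and 4 lower and 2 higher with library size alone. Hadh, an enzyme of the beta-oxidation spiral, had 447, 379 and 309 CPM at day 3, against 591, 617 and 609 CPM (-0.68 ± 0.13), and Cpt2, which returns fatty acids to their CoA form inside mitochondria, 159.9, 153 and 115 CPM, against 219, 229 and 238 CPM (-0.68 ± 0.13). The 1 gene called higher was Cpt1a, the liver-type and fetal form of the enzyme that admits fatty acids to mitochondria, with 66.5, 61.2 and 70.7 CPM, against 35.9, 36.2 and 37.2 CPM (0.86 ± 0.09, adjusted p = 2.11e-05). Its 3 day 3 libraries lay close together and above every homeostasis library. Of 22 genes of ketone, pyruvate and branched-chain amino acid catabolism 16 were lower and 1 higher (median -0.47), or 2 and 1 with library size alone (median -0.20). Among the falls were the ketone-using enzyme Oxct1 (-0.49 ± 0.09) and the pyruvate carrier Mpc2 (-0.62 ± 0.11). Of 17 regulators of the PGC-1, PPAR and ERR families 9 were lower and 0 higher (median -0.37), 5 without day 3 library 2 and 4 with library size alone (median -0.09). Perm1, a muscle cofactor of PGC-1, had 259, 225 and 197 CPM at day 3, against 396, 352 and 455 CPM (-0.82 ± 0.14), and Klf15, a regulator of fuel genes, 26.4, 26.5 and 22.4 CPM, against 46.2, 46.4 and 52.4 CPM (-0.95 ± 0.18). The cardiomyocyte markers (8 of 12 called lower, median -0.56) fell beside these lists, and their part in the result was not tested.

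**Figure D3:**
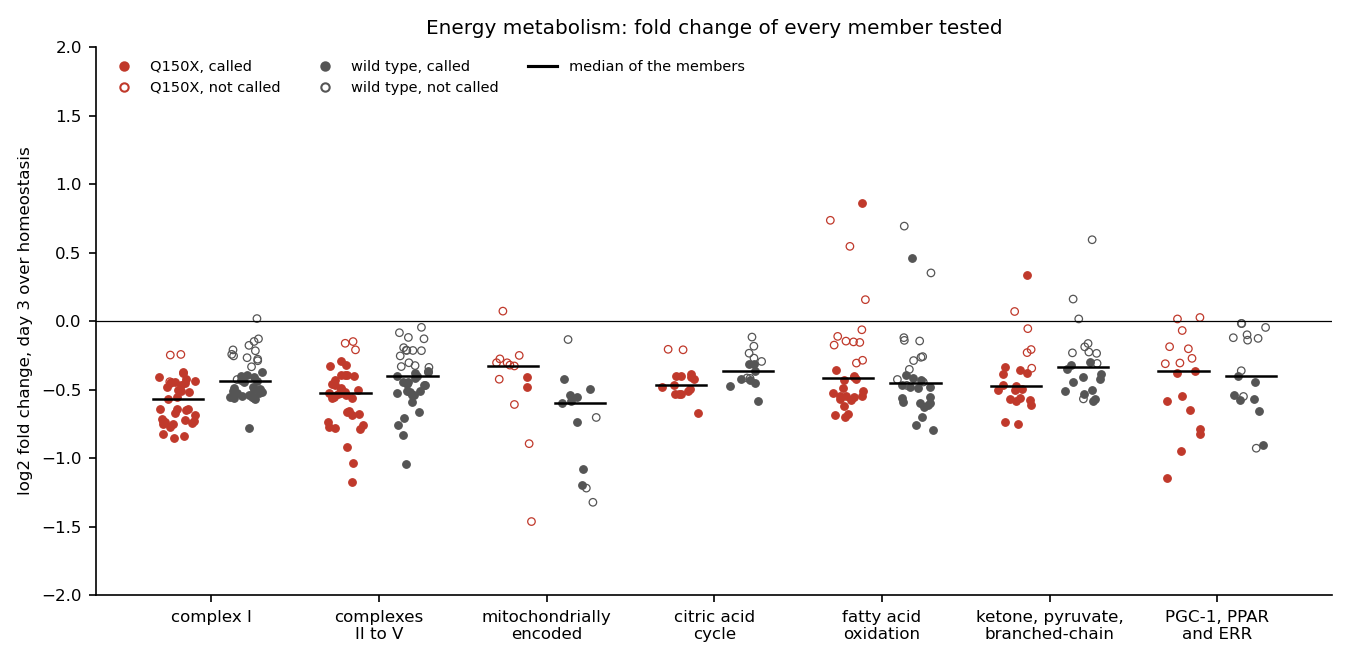
Log2 fold change, day 3 over homeostasis, of every tested member of 7 lists of energy metabolism, with Q150X left of wild type for each list, filled points for genes called at an adjusted p under 0.05 and a line at the median. In Q150X cardiomyocytes all nuclear subunits of the respiratory chain lay below 0, and Cpt1a stood above 0 among the fatty acid genes.

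Glycolysis and hypoxia genes split, with 9 called higher and 7 lower of 32 (median -0.08), 11 and 2 with library size alone (median 0.19), and 4 lower without day 3 library 3. Slc16a3, the lactate exporter MCT4, rose to 4.36, 3.55 and 4.803 CPM at day 3, against 0.329, 0.295 and 0.325 CPM at homeostasis (3.73 ± 0.31, adjusted p = 3.19e-06). Hif1a, the hypoxia-inducible transcription factor gene, rose to 149, 175 and 182 CPM, against 78.3, 103 and 85.4 CPM, and Eno1, the general enolase, to 161, 140.4 and 191 CPM, against 88.8, 93.6 and 107 CPM. The muscle enolase Eno3 (-0.56 ± 0.11), the muscle phosphofructokinase Pfkm (-0.50 ± 0.12) and the heart lactate dehydrogenase subunit Ldhb (-0.60 ± 0.11) fell.

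Many chaperone genes were lower. Of 25 heat shock and endoplasmic reticulum chaperone genes, 14 were called lower and 0 higher (median -0.42). Hspa8, the constitutive cytosolic HSP70, had 982, 1072 and 1038 CPM at day 3, against 1812, 1664 and 1879 CPM (-0.79 ± 0.10, adjusted p = 9.62e-05). Hspa5, the reticulum chaperone BiP, had 452, 579.9 and 552 CPM, against 865, 915 and 926 CPM, and Manf, a secreted reticulum stress protein, 14.7, 13.8 and 16.8 CPM, against 30.6, 28.7 and 32.7 CPM. Hsph1, a cochaperone of HSP70, had the lowest value of the list (-1.36 ± 0.21). The groups of these 4 genes did not overlap. With library size alone 6 members were called lower. The cardiomyocyte markers (8 of 12 called lower, median -0.56) fell beside this list as well.

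Other stress genes moved in part. Of 23 genes of the integrated stress response and one-carbon metabolism 4 were higher and 2 lower (median 0.46), or 8 and 1 with library size alone, and the serine synthesis gene Psat1 rose to 2.89, 5.73 and 7.81 CPM at day 3, against 1.19, 1.05 and 0.723 CPM. Of 21 antioxidant genes and targets of NRF2, 5 were higher and 4 lower (2 lower without day 3 library 3 or homeostasis library 3, and 7 and 0 with library size alone). Hmox1, which encodes heme oxygenase, rose to 59.3, 65.1 and 89.4 CPM, against 4.68, 7.14 and 3.25 CPM (3.82 ± 0.35), and Gpx3, a secreted glutathione peroxidase, to 200.4, 271 and 258 CPM, against 71.9, 54.6 and 65.3 CPM (1.93 ± 0.15). The mitochondrial genes Prdx3 (-0.42 ± 0.09) and Sod2 (-0.46 ± 0.10) fell. Of 15 iron and heme genes 2 were higher and 3 lower, or 5 and 1 with library size alone, with Fech, the last enzyme of heme synthesis, at 103, 103 and 85.9 CPM, against 151, 144 and 148 CPM. Of 23 genes of muscle ubiquitin ligases and autophagy 7 were lower and 1 higher, or 2 lower without day 3 library 3 or homeostasis library 3 and 3 without day 3 library 2 or homeostasis library 1, and the ligase gene Trim63 fell (-0.55 ± 0.13). With library size alone 0 members of that list were lower and 4 higher. Of 22 cell death genes 9 were higher and 0 lower (median 0.62), among them the TNF receptor gene Tnfrsf1a, at 17.4, 18.9 and 19.9 CPM, against 8.42, 8.22 and 8.17 CPM, and the caspase gene Casp8 (2.17 ± 0.34). Of 22 immediate early genes, which respond within minutes also to handling of tissue, 3 were higher and 0 lower. Their summed level was 2662, 2067 and 1026 CPM at day 3 and 1321, 2175 and 2774 CPM at homeostasis, so libraries of each group spanned the same range. Of 19 clock genes, 2 were lower and 0 higher, with a median of -0.12, or 1 and 1 with library size alone. The medians of the clock and immediate early lists, -0.12 and -0.03, became 0.14 and 0.24 with library size alone. The share called in either direction was 27% among all genes tested. In the integrated stress response and one-carbon list it was close to this, at 26.1%. It was 33.3% for iron and heme and 34.8% for ubiquitin ligases and autophagy. Antioxidant genes reached 42.9% and cell death genes 40.9%. The immediate early list, at 13.6%, and the clock list, lower still, lay below the share of all genes.

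Inflammatory genes rose, most from close to 0. Of 29 cytokine, chemokine and IL-6 family genes 24 were called higher and 0 lower, with a median of 4.41, or 4.37 when the 4 members with 0 counts at homeostasis stand at their lower bound. This is 82.8% of the members tested, against 14.9% of all genes called higher. Il6 had 3.61, 2.46 and 2.46 CPM at day 3 and 0 counts at homeostasis, at least 78.1-fold higher against 3 counts over the group, and Il1rn, the antagonist of the interleukin 1 receptor, 2.09, 1.32 and 1.85 CPM, at least 48.2-fold higher. Ccl2, which attracts monocytes, had 6.19, 5.81 and 7.66 CPM, against 0, 0.393 and 0.0723 CPM, and Cxcl10, an interferon-induced chemokine, 2.68, 2.59 and 4.04 CPM, against 0, 0.131 and 0 CPM. Levels of this order are far from those of the muscle genes above. In all 24 called members the groups did not overlap. The same held for the 32 called matrix genes and the 20 called complement genes, so it adds no support beyond the call. Among receptors of the family, Osmr, for oncostatin M, rose to 18.2, 27.4 and 32.5 CPM, against 5.34, 6.91 and 4.52 CPM (2.21 ± 0.32), whereas the shared subunit Il6st had 147, 164 and 152 CPM at day 3 and 190.0, 177 and 176 CPM at homeostasis and did not pass (-0.23 ± 0.09). The macrophage markers, 145, 169 and 351 CPM at day 3, against 2.505, 4.42 and 4.77 CPM, rose beside this list (11 of 12 called higher, 0 lower), and their part in it was not tested. Other blood cell markers were low. Of 10 neutrophil markers 2 were abundant enough to be tested, and the 10 summed to 2.11, 1.24 and 3.72 CPM at day 3, against 0, 0.0327 and 0.217 CPM, while the 10 lymphocyte markers summed to 1.13, 2.56 and 2.36 CPM, against 0 in all 3 homeostasis libraries.

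The promoters of these cytokine genes are shown because the site TGANTCA, bound by AP-1 factors, was found on either strand in 7 of the 18 called genes that have a RefSeq window (38.9%), against 7.93% of all 27025 windows of 300 bases and 5.02% of the windows of genes tested. A match is a description of the letters and not a bound site, and the motif sets and windows were looked at with these results known. The first 3 called genes in order of p with a match are given as 120 bases on the strand of the gene (GRCm38.p6, RefSeq), with the match in capitals.
Il6 (chr5:30012864-30012983, plus strand): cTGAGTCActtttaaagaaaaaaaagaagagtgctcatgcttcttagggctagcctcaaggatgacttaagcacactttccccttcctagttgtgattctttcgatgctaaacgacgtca
Il1rn (chr2:24336659-24336778, plus strand): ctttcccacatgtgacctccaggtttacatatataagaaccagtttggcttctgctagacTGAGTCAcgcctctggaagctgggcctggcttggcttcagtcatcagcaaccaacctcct
Cxcl10 (chr5:92348904-92349023, minus strand): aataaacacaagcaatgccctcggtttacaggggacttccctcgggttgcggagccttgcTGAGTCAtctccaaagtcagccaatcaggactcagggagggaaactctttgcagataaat
The match starts 249 bases before the gene start in Il6, 141 in Il1rn and 74 in Cxcl10.

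Of 22 complement, acute-phase and stress-secreted genes 20 were called higher and 0 lower (median 3.73, or 3.70 with the 3 members at 0 counts at homeostasis at their lower bound). Besides Clu, Spp1, Timp1 and Serpina3n, the lipocalin gene Lcn2 rose to 23.3, 19.1 and 22.3 CPM at day 3, against 2.01, 1.28 and 0.976 CPM at homeostasis. The complement genes C1qa (9.599, 8.91 and 16.3 CPM, against 0.164, 0.3604 and 0.434 CPM) and C3ar1 (4.93, 7.41 and 16.5 CPM, against 0.164, 0.262 and 0.145 CPM) are made mainly by macrophages. Of 23 interferon response genes 12 were higher and 0 lower (median 1.01), and 7 without day 3 library 3. Ifit1, an antiviral RNA-binding protein gene, had 3.66, 2.89 and 4.66 CPM, against 0.986, 0.5897 and 0.434 CPM (2.49 ± 0.40, adjusted p = 0.000416), and Ifit2 8.59, 8.83 and 14.98 CPM, against 5.63, 3.899 and 3.51 CPM. Of 16 antigen presentation genes 12 were higher and 0 lower (median 1.10), 6 without day 3 library 3, which was the highest of day 3 for all 12, and 7 without homeostasis library 1 or 3. The class II genes H2-Eb1 (2.86, 2.54 and 4.73 CPM, against 0.329, 0.688 and 0.542 CPM) and Cd74 (5.75, 3.81 and 7.24 CPM, against 0.7805, 1.24 and 0.759 CPM), used by professional antigen-presenting cells, and the class I gene H2-K1 (37.9, 31.5 and 44.3 CPM, against 26.1, 22.7 and 20.4 CPM) rose. H2 genes are near copies of each other, and how counting shared their reads is uncertain. The macrophage markers, 145, 169 and 351 CPM at day 3, against 2.505, 4.42 and 4.77 CPM, rose beside the complement, interferon and antigen presentation lists and were likewise highest in day 3 library 3. C1qa is one of them, and their part in these lists was not tested.

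Scar matrix genes rose. Of 38 matricellular and fibrillar matrix genes 32 were called higher and 0 lower, which is 84.2% of the members, with a median of 3.11. Fn1, which encodes fibronectin, had 145, 133 and 236 CPM at day 3, against 6.08, 8.29 and 5.75 CPM at homeostasis (4.67 ± 0.34, adjusted p = 2.16e-05). Col1a1, the main collagen of scar, had 131, 117 and 187 CPM, against 1.68, 4.095 and 1.95 CPM (5.79 ± 0.46), and Postn, which encodes periostin, a marker of activated fibroblasts, 53.00, 92.4 and 134 CPM, against 1.97, 5.14 and 1.63 CPM (4.97 ± 0.54). Every day 3 library was above every homeostasis library in these genes. Of the growth factors that drive scar formation, Tgfb2 rose to 21.5, 31.2 and 42.1 CPM, against 8.13, 4.42 and 4.99 CPM, and Tgfb1 to 12.5, 11.2 and 15.6 CPM, against 3.41, 5.86 and 4.37 CPM. Ccn1 had 348, 409 and 129 CPM at day 3 and 225, 434 and 654 CPM at homeostasis and did not pass (-0.57 ± 0.50), and Ccn2, a relative with a called rise, had 163, 174 and 131 CPM, against 49.3, 81.4 and 90.8 CPM. The fibroblast markers rose beside this list to 557, 662 and 949.6 CPM, against 36.7, 95.3 and 60.5 CPM (7 of 12 called higher), and share 6 genes with it. The resident fibroblast genes Pdgfra (4.52, 5.45 and 7.02 CPM, against 1.56, 2.52 and 2.13 CPM, called) and Dcn (24.4, 43.2 and 32.1 CPM at day 3 and 7.31, 22.2 and 12.1 CPM at homeostasis, not called) were present in every library. Dcn passed in edgeR without homeostasis library 2 (adjusted p = 0.0403) and with library size alone (0.039), in DESeq2 (0.0447) and in voom (0.0326). Their part in the matrix result was not tested.

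Of 27 basement membrane and integrin genes 13 were higher and 4 lower (median 0.41), with 0 lower without day 3 library 2 or 3 and with library size alone, and 1 without homeostasis library 2 or 3. Lamc1, a laminin chain gene, rose to 107, 107 and 143 CPM at day 3, against 73.6, 76.7 and 69.2 CPM, and Itga7, the muscle laminin receptor, to 222, 222 and 227 CPM, against 148, 168 and 169.8 CPM (0.47 ± 0.09). Of 27 cytoskeleton and tubulin genes 21 were higher and 1 lower (median 1.68). Tubb5 had 69.7, 65.6 and 102 CPM, against 23.3, 26.3 and 32.2 CPM (1.54 ± 0.21), and Tubb2b 4.93, 5.28 and 11.7 CPM, against 0.698, 0.491 and 0.145 CPM. The member called lower was Tuba8, a tubulin of heart and muscle, with 81.6, 56.2 and 53.97 CPM, against 136, 111 and 161 CPM (-1.09 ± 0.16). Tubulin genes are similar to each other in sequence. Of 22 growth signalling genes 8 were higher and 4 lower, with 2 lower without day 3 library 2 or homeostasis library 2 or 3. On library size alone 10 were higher and 2 lower. Fstl1, a secreted factor of injured heart, rose to 35.2, 47.1 and 68.5 CPM, against 3.45, 6.62 and 4.302 CPM, and Inhba, the activin A subunit, to 4.46, 3.095 and 6.700 CPM, against 0.698, 0.295 and 0.217 CPM. The insulin receptor gene Insr (-0.61 ± 0.10) and Tead1, the DNA-binding partner of YAP (-0.68 ± 0.11), fell.

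Cell cycle genes rose from low levels. Of 30 tested, 24 were called higher and 0 lower (80% of the members; median 2.59). Ccna2, the cyclin of S phase and G2, had 2.76, 3.35 and 5.37 CPM at day 3, against 0.0822, 0.0655 and 0 CPM at homeostasis. Mcm6, a subunit of the replicative helicase, had 6.27, 6.42 and 11.7 CPM, against 1.23, 1.74 and 1.12 CPM (2.57 ± 0.32, adjusted p = 7.4e-05), and Mcm3 3.54, 3.81 and 7.54 CPM, against 1.23, 1.31 and 1.01 CPM (2.06 ± 0.30). Cdk1, the kinase of mitotic entry, had 1.88, 1.497 and 4.78 CPM, against 0.411, 0.197 and 0.145 CPM (3.45 ± 0.59). Day 3 library 3 was the highest for 21 of the 24, and it was also the highest for 10 of the 11 called macrophage markers. The D-type cyclin genes Ccnd1 (0.42 ± 0.19) and Ccnd2 (-0.14 ± 0.10), which sit at the start of the cycle, did not pass. Ccnd1 passed in edgeR without homeostasis library 2 (adjusted p = 0.0404), with library size alone (0.0118) and with library size without mitochondrially encoded genes (0.0271). Which cells carry these RNAs cannot be told from bulk libraries, and the part of macrophages or fibroblasts was not tested.

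Promoters of cell cycle genes are shown for the same reason. The E2F sites TTTCGCGC or TTTGGCGC, on either strand, were in 5 of the 21 called genes with a window (23.8%), against 0.833% of all windows and 1.52% of those of genes tested. The first 3 in order of p follow, with matches in capitals.
Mcm6 (chr1:128359756-128359875, minus strand): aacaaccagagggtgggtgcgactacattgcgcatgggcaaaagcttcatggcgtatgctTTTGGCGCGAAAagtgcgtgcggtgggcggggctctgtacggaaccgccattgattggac
Mcm3 (chr1:20820263-20820382, minus strand): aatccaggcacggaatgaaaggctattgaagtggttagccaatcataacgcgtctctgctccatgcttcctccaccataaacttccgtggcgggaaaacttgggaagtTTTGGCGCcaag
Cdk1 (chr10:69352984-69353103, minus strand): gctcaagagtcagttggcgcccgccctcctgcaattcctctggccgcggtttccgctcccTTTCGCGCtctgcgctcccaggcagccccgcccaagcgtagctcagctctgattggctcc
In Mcm6 the capitals hold 2 overlapping matches on opposite strands, from 110 bases before the gene start. The match of Cdk1 starts 131 bases before the start and that of Mcm3 lies 38 bases after it.

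The markers of other cell types were counted in the same way. The share called was 25% for endothelial and 28.6% for lymphatic endothelial markers, close to the 27% of all genes tested. It was 33.3% for atrial, 62.5% for epicardial and 66.7% for pericyte and smooth muscle markers. Of 12 endothelial markers 3 were higher and 0 lower, or 1 without day 3 library 2 or 3 or homeostasis library 1 or 3, and Pecam1 rose to 42.5, 45.2 and 62.8 CPM at day 3, against 19.1, 26.01 and 19.5 CPM. Of 9 pericyte and smooth muscle markers tested 5 were higher and 1 lower, of 8 of epicardium 5 and 0 (2 without day 3 library 3, 3 without homeostasis library 1 and 1 without homeostasis library 3), and of 2 of erythrocytes 1 and 0. Of 7 markers of lymphatic endothelium 1 was higher and 1 lower, with 4 higher without homeostasis library 2, 5 higher with library size alone, and 0 lower without day 3 library 2 or 3 or homeostasis library 3. Of 6 atrial markers 1 was higher and 1 lower, with 0 lower without day 3 library 2 or 3 or homeostasis library 2 and 2 without homeostasis library 1. Of 2 markers of Schwann cells and neurons 1 was lower, and 0 without day 3 library 2 or 3 or homeostasis library 2 or 3. None of the 6 adipocyte markers was abundant enough to be tested, and none of 5 sex-linked genes was called. Over the 12 cardiomyocyte libraries Ddx3y, a gene of the Y chromosome, had 91.8 to 139 CPM. Xist, an RNA of female cells, had 0 to 0.490 CPM.

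**Figure D4:**
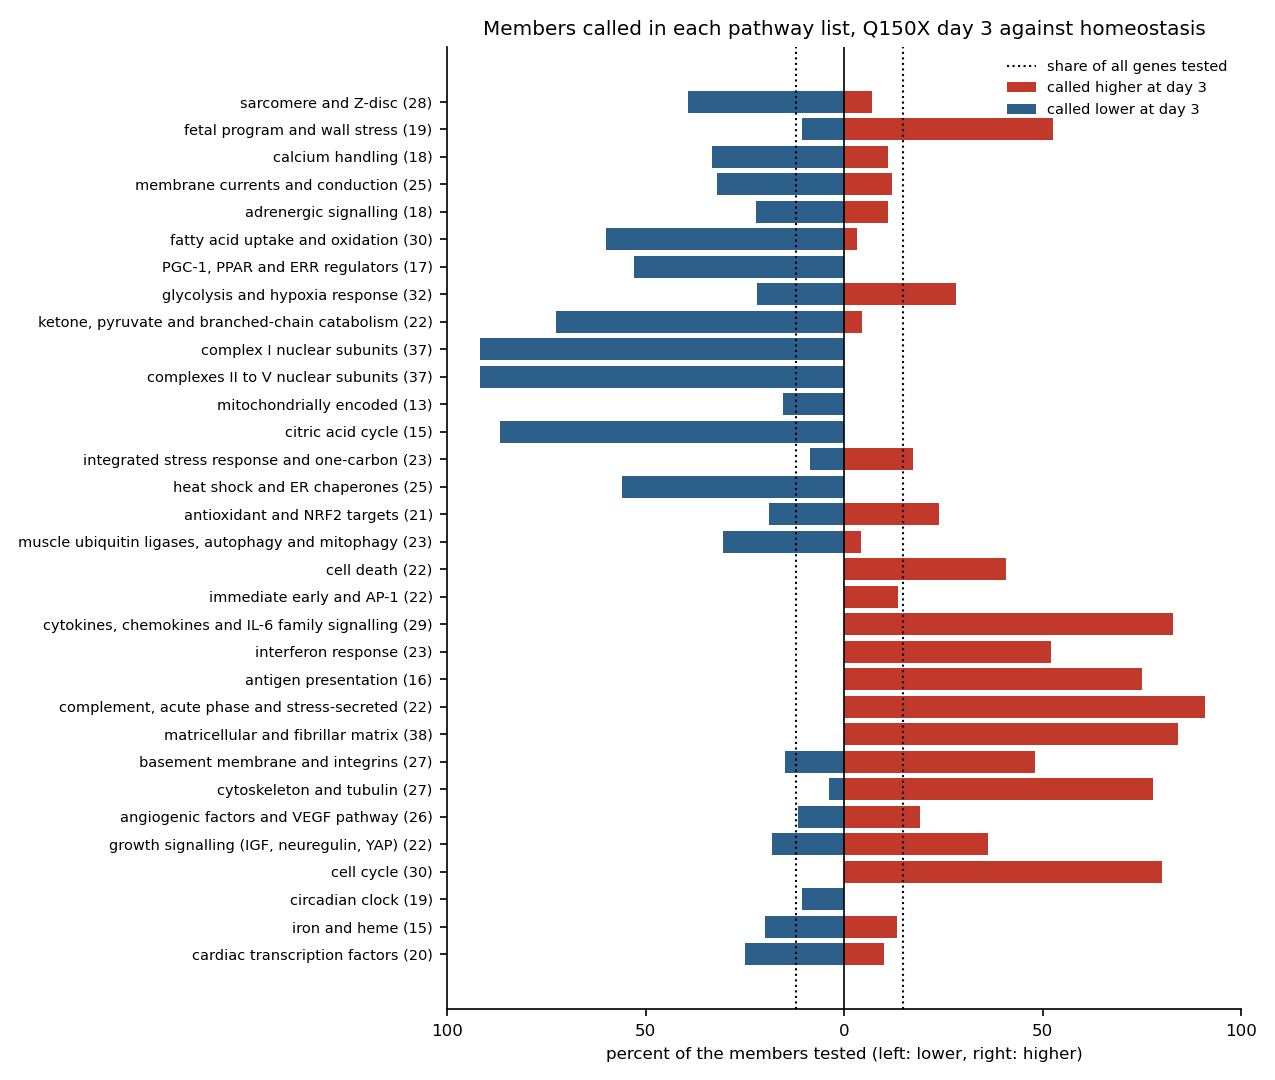
Percent of the tested members of each of 32 pathway lists called higher (right of 0) or lower (left of 0) at day 3 in Q150X cardiomyocytes, with the number tested in parentheses and dotted lines at the 14.9% and 12.1% of all genes. Bars of the respiratory chain reach 91.9% lower, and those of complement, matrix, cytokine and cell cycle genes reach 80% or more higher.

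Whether the allele alters this response was asked by the difference between the 2 changes, Q150X minus wild type. Wild-type cardiomyocytes gave 2634 calls (17.4% of the genes), of which 1539 were higher (10.1%) and 1095 lower (7.22%), with library totals of 34939766 to 42246348 counts at day 3 and 25035490 to 33833355 at homeostasis. The count was 1352 without wild-type day 3 library 1 and 1583 without wild-type homeostasis library 3. All 1942 genes called in both genotypes changed in the same direction. Another 2155 were called in Q150X and 692 in wild type alone, which does not show a difference. In the test of the difference itself 0 genes (0%) passed in edgeR, with the smallest adjusted p at 0.495, while 1186 genes had an unadjusted p under 0.05 (7.82% of the genes). DESeq2 called 20, and edgeR without the filter on low counts called 219 (185 higher and 34 lower). The median SE of the difference was 0.29 on the log2 scale, against 0.21 for the change in Q150X.

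Of the genes named by the smallest p of the difference, Tubb4b, a broadly expressed tubulin, had 145, 133 and 145 CPM at day 3, against 126, 117 and 135 CPM at homeostasis, in Q150X cardiomyocytes, and 165, 154 and 136 CPM, against 90.1, 81.4 and 79.97 CPM, in wild-type cardiomyocytes (difference -0.69 ± 0.14). Tuba8 changed by -1.09 ± 0.16 in Q150X and -0.07 ± 0.16 in wild type (difference -1.02 ± 0.22). Wild-type levels of Tuba8 were 61.2, 68.1 and 73.4 CPM at day 3 and 75.98, 64.9 and 71.8 CPM at homeostasis. On the other side, Mtss1, which encodes a membrane-bending protein, had 24.5, 15.9 and 17.6 CPM at day 3 and 14.99, 16.4 and 12.2 CPM at homeostasis in Q150X, and 18.6, 15.8 and 13.5 CPM, against 22.4, 29.8 and 32.7 CPM, in wild type (difference 1.24 ± 0.26). Map6, a microtubule stabiliser, rose in both, by 3.12 ± 0.26 in Q150X and 1.54 ± 0.24 in wild type (difference 1.58 ± 0.36). The adjusted p of these 4 was 0.495 or more in edgeR and 0.0253 to 0.0425 in DESeq2. The differences of Ldb2 (1.84 ± 0.39), Adamts6 (1.11 ± 0.25), Peg3 (1.37 ± 0.32), Agpat5 (-0.69 ± 0.17), Map10 (-1.18 ± 0.29) and Manf (-0.75 ± 0.19) did not pass in edgeR.

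The lists differed in calls between the genotypes without a called difference. Of 23 interferon genes 12 were called higher in Q150X and 1 in wild type (medians 1.01 and 0.27), of 16 antigen presentation genes 12 and 3 (1.10 and 0.50), and of 25 chaperone genes 14 and 3 were called lower (-0.42 and -0.20). The interferon genes summed to 120, 106 and 145 CPM at day 3 in Q150X and 128, 137 and 112 CPM in wild type. At homeostasis they summed to 90.3, 89.2 and 73.9 CPM and 101.4, 100.8 and 101.0 CPM. The chaperone genes summed to 4390, 4896 and 4499 CPM at day 3 in Q150X and 4516, 4830 and 4490 CPM in wild type. At homeostasis they summed to 6646, 6592 and 7067 CPM and 5868, 5199 and 5402 CPM. In these 2 lists the genotypes overlapped at day 3 and not at homeostasis. The antigen presentation sums overlapped between genotypes at day 3 and at homeostasis. The number of members with an unadjusted p of the difference under 0.05 was 6, 3 and 10 in the interferon, antigen presentation and chaperone lists. It was 6 of 12 for the endothelial markers and 5 of 9 for those of pericytes and smooth muscle, against 7.82% of all genes tested. Wild-type homeostasis library 2 held 218 CPM of the pericyte marker Rgs5, against 85.2 and 85.1 CPM in libraries 1 and 3. Without wild-type homeostasis library 2, 856 of 15648 genes tested had such a p, against 1186 of 15169 with it. The macrophage markers summed to 243, 186 and 128 CPM at day 3, against 6.28, 11.9 and 8.52 CPM at homeostasis, in wild type, where 12 of 12 were called higher. Their median was 5.71 in Q150X (5.37 with the member at 0 counts at its lower bound) and 4.29 in wild type. An unadjusted p of the difference under 0.05 was found for 0 of these 12. Ifit1 levels were 4.65, 3.91 and 2.69 CPM at day 3 and 2.32, 1.17 and 3.26 CPM at homeostasis in wild type (difference 1.76 ± 0.53, unadjusted p = 0.00428). For Manf wild type held 16.3, 17.6 and 13.8 and 21.8, 19.8 and 16.2 CPM. The endothelial markers had medians of 0.42 in Q150X and -0.66 in wild type, where homeostasis library 2 held the highest sum (259.7, 539.6 and 227 CPM at homeostasis). For nuclear complex I genes 34 members were called in Q150X and 24 in wild type (medians -0.57 and -0.44). For the integrated stress response 4 and 12 were called higher (0.46 and 0.74), and for the matrix list 32 and 30 (3.11 and 2.57). In the cytokine list of 29 genes 24 and 22 were called higher (4.41 and 3.37), and 0 and 2 lower. Of these 29 genes, 9 had an unadjusted p of the difference under 0.05. Among the 13 mitochondrially encoded genes 2 and 9 were called lower (-0.33 and -0.60), and 0 had such a p.

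**Figure D5:**
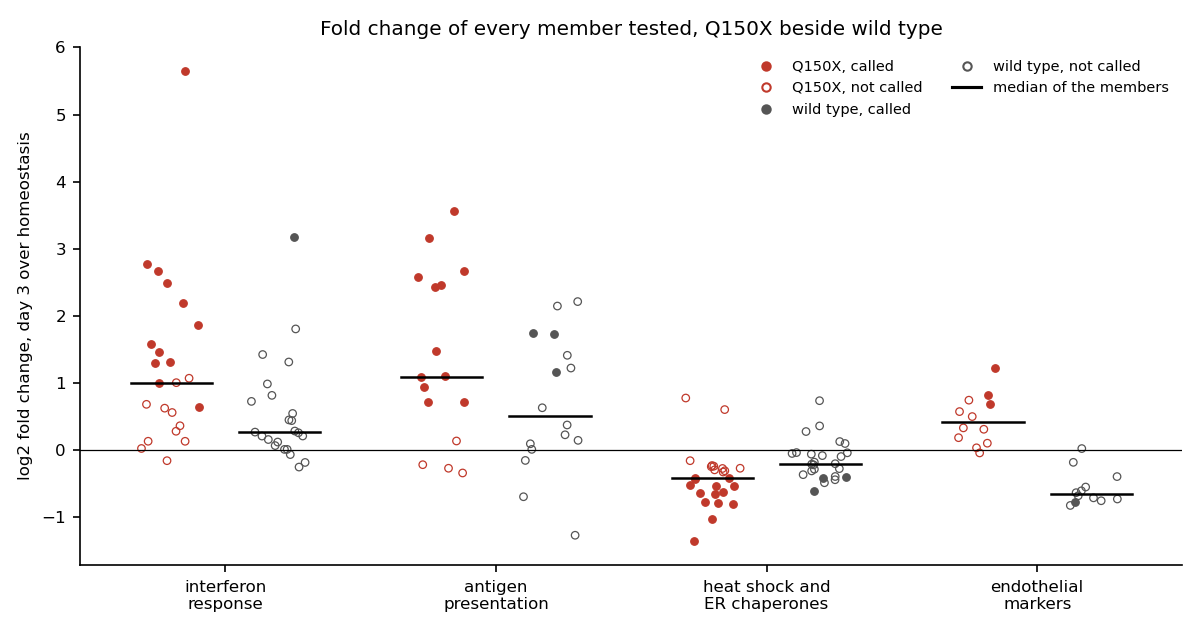
Log2 fold change, day 3 over homeostasis, of every tested member of 4 lists, with Q150X left of wild type, filled points for genes called at an adjusted p under 0.05 and a line at the median. Interferon genes had a median of 1.01 in Q150X and 0.27 in wild type, and no member passed the test of the difference. Their summed levels overlapped between the genotypes at day 3 and were lower in Q150X at homeostasis.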

How the data were processed

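Bulk RNA-seq of the 12 cardiomyocyte libraries was used, and the label check also used the other libraries of the series. The authors deposited 1 table of raw read counts per gene (57010 genes). Libraries were made from 2 µg of total RNA, per the labels' protocols, and HISAT2, kallisto and GRCm39 are named in the submitters' processing notes. Which of these tools made the counts, the annotation and the strand setting are not stated in the sources used here, so overlapping and antisense genes are uncertain. Gene symbols were matched by identifier (52029 of 57010), and rows without a symbol held at most 0.0612% of a cardiomyocyte library.

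Genes were kept with edgeR's filter (minimum count 10, minimum total 15), which left 15169. The 12 libraries were scaled by TMM and fitted in 4 groups with edgeR 4.0.16's robust quasi-likelihood F-test under R 4.3.3, with Benjamini-Hochberg adjustment over all genes tested. The standard error is the log2 fold change divided by the square root of F. A gene is called at an adjusted p under 0.05. For a gene with 0 counts in a group, the bound uses 3 counts over the group. Genes are named by these rules: per direction the 10 largest fold changes among called, non-overlapping genes whose mean log2 CPM reaches 1, the 6 largest CPM differences, up to 4 members of each list by p, and 5 genes by p of the difference, besides Vegfa, Kdr and Flt1. Other list members are given where their list is described, and these were chosen with their values known. Some genes that these rules name are not reported here. The members and all 46 gene lists were chosen with earlier results of these data known, so the lists are descriptions and carry no test of their own. No 2 replicates held identical values, and their counts differed by more than sampling noise (chi-square per gene 16.5 to 72.9). Counting precision is set by 25035490 to 42246348 counts per library. The fit was run on simulated counts in which a small set of genes changed by known folds, as many up as down. That simulation held no shift in RNA composition, so it does not test the fit under one. Promoter windows (250 bases before to 50 after the gene start) are from RefSeq GRCm38.p6, not the build of the files, and 10640 of the genes tested matched one by symbol. Alternatives were the size factors of DESeq2, library size alone, no filter, the compared groups alone, a replicate block, DESeq2 1.42.0, voom with quality weights (limma 3.58.1), each library left out in turn and, added after seeing the data, library size without mitochondrially encoded genes.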

Additional observations from a re-analysis of the deposited data

How the results depend on the processing

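In Q150X cardiomyocytes the count of 4097 genes was within 1.5 times under every setting tried other than leaving out day 3 library 3 (range over libraries left out 2430 to 4418), at 3529 with the compared groups alone and 5255 with voom. The direction split depended on the scale, with 2256 higher and 1841 lower under TMM and 4057 and 429 with library size alone. It was 3613 and 775 with library size without mitochondrially encoded genes. A like total did not mean the same genes. Of the 4097, 2685 were also called with library size alone and 3030 with library size without mitochondrially encoded genes. The replicate block gave 3715 genes in Q150X, 2220 in wild type and 0 for the difference; under it Myh7b lost its call (adjusted p = 0.0561) and Dcn passed (0.000236). Same-numbered libraries deviated with correlations of -0.0139, -0.0196 and -0.121 in Q150X, and differently numbered ones with -0.0842 to 0.106. No pairing by number was seen, and with 3 libraries a group this cannot exclude one. In wild type 4340 genes were called with library size alone and 1352 to 2339 with a library left out. For the difference between genotypes 219 genes passed with no filter, 20 with DESeq2, 0 with voom and 0 to 1 with a library left out. Of 222 genes called in Q150X that the naming rules or the list descriptions chose, 159 were called under every alternative and none changed sign, while 48 calls were lost with library size alone and 34 without day 3 library 3. The cause of these changes was not tested. Genes near 0 counts at homeostasis have folds limited by depth.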
